A study of Mus musculus with 8 samples.

Results

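NF-kappaB is a family of dimeric transcription factors, and the genes described here are its 5 subunits (Nfkb1, Nfkb2, Rela, Relb and Rel), 3 of its cytoplasmic inhibitors (Nfkbia, Nfkbib and Nfkbie) and 2 genes that tumour necrosis factor induces through it (Tnfaip3 and Tnfaip2). They are 10 of the 55487 genes in the table, found by mouse symbol, and all 10 had enough counts to be tested, with between 64 and 1982 estimated counts in every library. The members were chosen by gene family with the values of this same comparison already known, so their differences between genotypes are given as a description and not as a test. Nfkb2, the 3 inhibitor genes and Tnfaip2 lay above the whole control range in all 4 knockout libraries, whereas the ranges of Nfkb1, Rela, Relb, Rel and Tnfaip3 overlapped. Of all tested genes, 9.34% lay above the whole control range in all 4 knockout libraries.

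Sciatic nerve RNA was sequenced from mice at postnatal day 6, with 4 libraries of each genotype. Controls (Ctrl) were CNP+/+ Cdk7lox/lox, and knockouts (CNP-Cdk7cKO) were CNPcre/+ Cdk7lox/lox, so both groups carried floxed Cdk7 and only the knockouts carried Cre, at 1 Cnp allele. Cnp is active in myelinating glia, here Schwann cells, and the nerve also holds fibroblasts, endothelium and macrophages in which Cdk7 is not meant to be deleted. No group had Cre without floxed Cdk7, so an effect of Cre or of the altered Cnp allele cannot be told apart from that of Cdk7. In bulk RNA, fewer cells of a type and less RNA per cell cannot be told apart either.

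As background, NF-kappaB dimers wait in the cytoplasm bound to inhibitors of the IkappaB family. Signals from receptors for tumour necrosis factor, interleukin 1 or microbial products lead a kinase complex to mark IkappaB for destruction, and the freed dimers enter the nucleus. A slower, non-canonical arm, driven by receptors such as Ltbr, processes the Nfkb2 precursor and releases dimers with Relb. Several of the pathway's own genes, including Nfkb2, Nfkbia and Tnfaip3, are known targets of NF-kappaB, so that the pathway tunes itself. In peripheral nerve it is known for its part in the response to injury and for work on its role in early myelination.

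The sequences before the start sites are shown because they hold the letters that NF-kappaB is known to bind. Several members are known targets of NF-kappaB, so such letters near their starts are in part built into the choice of genes. RefSeq promoter windows (GRCm38.p6), reaching from 250 bases before a start to 50 after it, were found for 8 members, and not for Nfkb1 or Relb. They were searched on both strands for the kappaB consensus, which reads G, G, G, a purine, any base, A or T, a pyrimidine, a pyrimidine, C, C. A match lay in 5 of the 8 genes (62.5%), against 1388 of 27025 genes (5.14%) in the whole RefSeq set. Related genes held it often as well: 13 of 31 other known targets (41.9%) and 7 of 18 other IkappaB genes and brakes (38.9%), from the pathway lists described further on. All 5 had it upstream of a start. These letters are a description of the window and not evidence of binding. Below, capitals mark the matches, overlapping ones merged, and each sequence reads in the direction of its gene. The windows of Nfkbia (chr12:55492648-55492897, minus strand) and Nfkbie (chr17:45555450-45555699, plus strand) are the 250 bases before the start, which hold no annotated exon. Those of Nfkb2 (chr19:46304688-46304717 and chr19:46304707-46304736, plus strand), Rel (chr11:23771042-23771071, minus strand) and Tnfaip3 (chr10:19015411-19015440, minus strand) are cut to 30 bases.
Nfkbia: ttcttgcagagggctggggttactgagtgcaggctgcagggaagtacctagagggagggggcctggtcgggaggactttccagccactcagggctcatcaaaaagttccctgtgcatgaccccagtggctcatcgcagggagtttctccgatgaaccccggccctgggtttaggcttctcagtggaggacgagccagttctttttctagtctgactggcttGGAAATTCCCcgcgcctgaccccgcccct
Nfkbie: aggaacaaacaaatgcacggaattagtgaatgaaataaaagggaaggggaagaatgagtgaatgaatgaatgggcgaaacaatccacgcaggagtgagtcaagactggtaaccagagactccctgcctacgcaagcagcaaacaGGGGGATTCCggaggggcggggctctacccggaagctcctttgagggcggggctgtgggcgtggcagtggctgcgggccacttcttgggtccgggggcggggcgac
Nfkb2, farther window: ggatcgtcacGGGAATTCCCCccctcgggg
Nfkb2, nearer window: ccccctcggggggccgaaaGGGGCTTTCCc
Rel: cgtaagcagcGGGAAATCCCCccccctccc
Tnfaip3: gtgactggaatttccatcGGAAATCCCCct
The match in Nfkbia begins 29 bases before its start, and the one in Nfkbie 106 bases before. The 2 matched stretches of Nfkb2 begin 39 and 11 bases before the first of its 3 listed starts, and the later starts have further matches. All 250 bases before that first start lie in annotated exon, so they are not outside transcribed sequence. Of the 250 bases before the first start of Tnfaip3, 110 lie in annotated exon, and for Rel 1 does. Tnfaip3 has another match, 125 bases before its first start. Matches were thus present in 3 genes that were higher in the knockout (Nfkb2, Nfkbia and Nfkbie) and in 2 that were not (Rel and Tnfaip3), and absent from the windows of Tnfaip2, Nfkbib and Rela.

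Checks of the libraries touch the results as follows. They held 16897242 to 21527891 estimated counts. Cdk7 measured 20.6 to 22.2 CPM (counts scaled to the size of the library) in Ctrl and 9.62 to 12.7 CPM in CNP-Cdk7cKO, and Cnp 2981 to 3312 and 1314 to 1454 CPM. All 10 defining Schwann cell markers were present, and they summed to 133300 to 149600 CPM in controls, against 101600 to 111400 CPM in knockouts; 6 of the 10 fell. Xist and Y-linked genes marked Ctrl 1 and all 4 CNP-Cdk7cKO libraries as female and Ctrl 2, 3 and 4 as male, so sex and genotype largely coincide. The 24 skeletal muscle markers, 23 of which fell, summed to 669 to 6599 CPM in controls, against 125 to 798 CPM in knockouts. Of 12 macrophage markers 4 rose (Csf1r, Cx3cr1, C1qa and C1qb), and the sum over all 12 was 368 to 465 CPM in controls, against 446 to 525 CPM in knockouts, with no marker at 0. Of 8 fibroblast markers 2 rose (Pdgfra and Col1a1), and the list median log2 fold change was 0.20, from 0.01 (Clec3b) to 0.37 (Lum). The sum over all 8 was 27070 to 30770 CPM in controls, against 31030 to 35860 CPM in knockouts, without overlap. That sum is mostly Col1a1 (means of 15700 CPM in controls and 18730 CPM in knockouts) and Col1a2 (10750 and 11770 CPM, not called). Lymphocyte, neutrophil and mast cell markers each summed to at most 17.7 CPM in any library, and the mast cell receptor gene Fcer1a was at 0 in all. The labels do not say that each library is a separate animal, so errors measure the spread between these libraries.

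Among the subunits, Nfkb2 stood apart from the other 4. Nfkb2 encodes the precursor of the non-canonical subunit, which also acts as an inhibitor before it is processed. It measured 65.2, 56.9, 59.5 and 58.4 CPM in controls 1 to 4, and knockouts 1 to 4 gave 85.7, 86.1, 84.8 and 87.2 CPM; later values follow the same order. The 4 knockout values lie within a narrow band above every control, of which Ctrl 1, the female one, was the highest. Controls averaged 60.0 ± 3.65 CPM and knockouts 86.0 ± 1.02 CPM (SD, n = 4), and the log2 fold change was 0.52 ± 0.05 (SE). Against Ctrl 1 alone the knockout mean was 1.32 times as high. Nfkb2 lies at chr19:46304320-46312385 on the plus strand (GRCm38, as for all positions given for genes), and 531 of its exonic bases are shared with the antisense gene AC114539.1. That gene, with 5.40 ± 0.47 CPM in controls against 8.83 ± 0.74 CPM in knockouts, was also higher, and whether the counting used strand is not given in the sources used here. The antisense gene Psd shares another 299 bases and measured 6.12 and 7.10 CPM.

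Nfkb1 (chr3:135584655-135691547), which encodes the precursor of the canonical partner subunit, measured 81.4, 82.0, 78.9 and 82.8 CPM in controls, against 86.0, 83.3, 90.1 and 80.5 CPM in knockouts. The lowest knockout value lies within the control range (log2 fold change 0.06 ± 0.05 SE). Rela (chr19:5637483-5648130) encodes the main activating subunit of the canonical arm. It measured 91.1, 91.4, 93.0 and 85.9 CPM in controls, against 87.0, 92.9, 87.5 and 95.7 CPM in knockouts, 2 ranges that almost coincide (log2 fold change 0.01 ± 0.05). Relb (chr7:19606217-19629438), the partner of the processed Nfkb2 product, measured 25.8, 24.8, 25.9 and 28.7 CPM in controls, against 31.1, 28.7, 27.4 and 33.6 CPM in knockouts. Ctrl 4 exceeded 2 of the knockout libraries, and the log2 fold change was 0.20 ± 0.07. Rel (chr11:23736847-23770970), which encodes the subunit best known from lymphocytes, measured 4.47 to 5.66 CPM in controls, against 4.44 to 5.99 CPM in knockouts. Its groups overlapped throughout.

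Within each library, the ratio of Nfkb2 to Nfkb1 counts was 0.694 to 0.801 in Ctrl and 0.941 to 1.08 in CNP-Cdk7cKO. That of Nfkb2 to Rela was 0.622 to 0.716 and 0.911 to 0.986. For Nfkb2 over Relb, its non-canonical partner, the ratios were 2.03 to 2.53 and 2.60 to 3.09. None of these 3 ratios overlapped between the groups, but all 3 have Nfkb2, itself without overlap, on top. The ratio of Relb to Rela did overlap, at 0.27 to 0.33 in Ctrl and 0.31 to 0.36 in CNP-Cdk7cKO. A ratio within a library does not depend on how the library was scaled. It is not corrected for exon length, so it serves to compare the groups and not to rank the genes. The plot of counts by library shows these patterns.

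**Figure D1:**
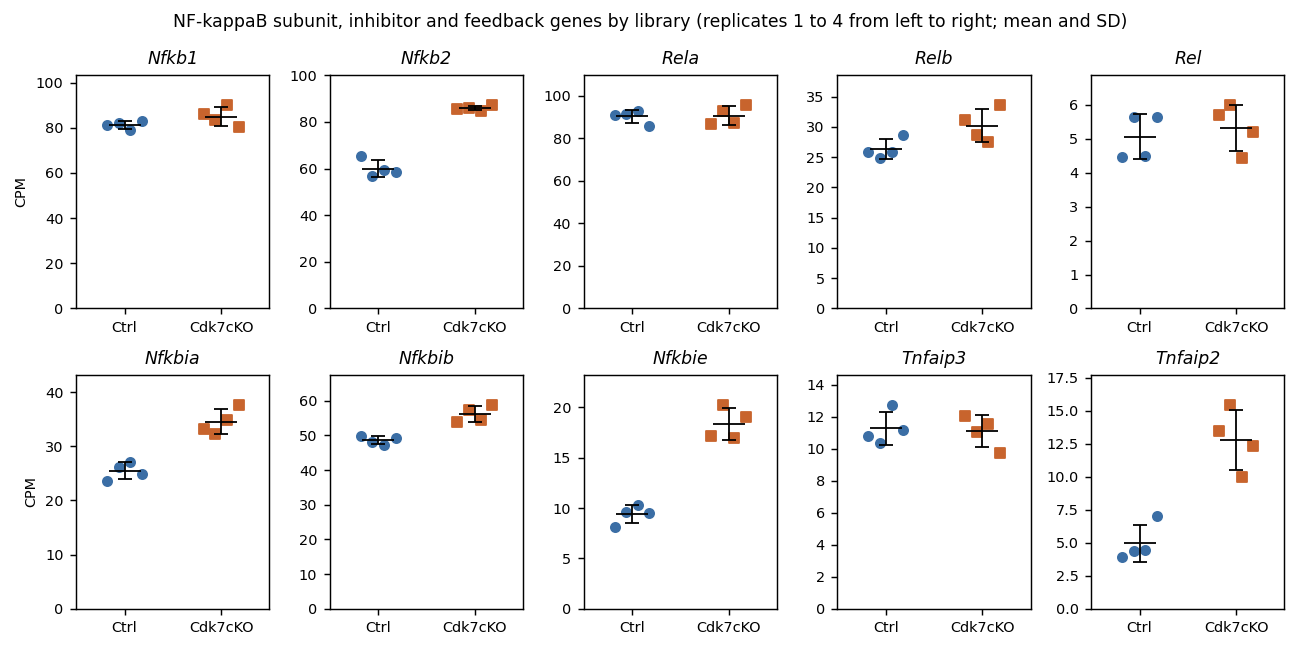
Expression in CPM (vertical axes, from 0) of the 10 genes in each of 4 Ctrl (circles) and 4 CNP-Cdk7cKO (squares) libraries, with the mean and SD of each group. Nfkb2, Nfkbia, Nfkbib, Nfkbie and Tnfaip2 show no overlap between the groups, and the other 5 do. All 4 CNP-Cdk7cKO libraries lay above all Ctrl libraries for 9.34% of all tested genes.

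The 3 inhibitor genes were all higher in the knockout, by different amounts. Nfkbia (chr12:55489410-55492647) encodes IkappaBalpha, the inhibitor that is resynthesised soon after NF-kappaB activation and carries it back out of the nucleus. It measured 23.5, 26.2, 27.1 and 24.9 CPM in controls, against 33.3, 32.2, 34.9 and 37.5 CPM in knockouts. Every knockout library exceeded the highest control, with means of 25.4 ± 1.56 and 34.5 ± 2.31 CPM (log2 fold change 0.44 ± 0.06 SE). Ctrl 1 was the lowest control here, and the knockout mean was 1.47 times its value.

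Nfkbie (chr17:45555703-45563169) encodes IkappaBepsilon, a related inhibitor with slower kinetics. It measured 8.14, 9.62, 10.3 and 9.51 CPM in controls, against 17.1, 20.2, 16.9 and 19.1 CPM in knockouts. The groups are far apart relative to their spread, at 9.40 ± 0.91 and 18.3 ± 1.59 CPM (log2 fold change 0.96 ± 0.10), and Ctrl 1 was again the lowest. Nfkbib (chr7:28758251-28767512) encodes IkappaBbeta, which responds more slowly to stimulation than IkappaBalpha. It measured 49.8, 48.2, 47.4 and 49.4 CPM in controls, against 53.8, 57.3, 54.5 and 58.7 CPM in knockouts, with a mean 15.2% higher and no overlap (log2 fold change 0.20 ± 0.05). Of its exonic bases, 314 are shared with antisense Ccer2 (1.51 CPM in controls, 1.47 CPM in knockouts) and 42 with antisense Sirt2, a gene with far more counts (484 and 496 CPM). The ratio of Nfkbie to Nfkbia was 0.346 to 0.382 in Ctrl and 0.485 to 0.627 in CNP-Cdk7cKO, so the 2 genes were not higher in equal measure. Counts of Nfkbia relative to Rela were 0.258 to 0.291 and 0.347 to 0.398.

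The 2 feedback genes differed from each other. Tnfaip2 (chr12:111442469-111455018), a gene induced by tumour necrosis factor whose product promotes thin membrane bridges between cells, measured 3.92, 4.39, 4.46 and 7.02 CPM in controls, against 13.4, 15.4, 9.98 and 12.3 CPM in knockouts. The lowest knockout library lay above Ctrl 4, the highest control and the library with most muscle transcripts. Its means were 4.95 ± 1.40 and 12.8 ± 2.27 CPM, a log2 fold change of 1.36 ± 0.19 (SE) and the largest among the 10 genes. It shares 314 exonic bases with antisense Gm40578, which had at most 1 count in any library. Tnfaip3 (chr10:19000910-19015657) encodes the ubiquitin-editing enzyme that shuts off signalling upstream of the kinase complex. It measured 10.8, 10.4, 12.7 and 11.2 CPM in controls, against 12.1, 11.1, 11.6 and 9.77 CPM in knockouts (log2 fold change -0.02 ± 0.10), with both the highest value in a control and the lowest in a knockout. The ratio of Tnfaip2 to Tnfaip3 was 0.351 to 0.629 in Ctrl and 0.862 to 1.39 in CNP-Cdk7cKO.

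Read from the fit across all 15056 tested genes (edgeR quasi-likelihood, Benjamini-Hochberg adjusted p under 0.05), 5 of the 10 members were called higher, where 5.07% of all genes were. By that fit 0 were called lower, where 6.6% of all genes were. At an unadjusted p under 0.05 edgeR gave 6 higher and 0 lower members, where 12.7% and 13.4% of all genes passed. DESeq2 called 5 members higher and 0 lower, beside 5.53% and 7.59% of all genes, and limma-voom also 5 and 0, beside 5.96% and 6.66%. All 4 knockout libraries lay above all controls for 5 members, and for 9.34% of all tested genes. The median log2 fold change was 0.20 over the members and 0.00 over all tested genes. Since the members were picked with these results known, the shares are printed for scale alone.

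Compared per kb of merged exons, the scale used to rank the levels of different genes, Rela was the most abundant member in Ctrl at 29.4 ± 1.01 CPM per kb (SD, n = 4). Nfkbib (22.4 ± 0.51), Nfkbia (15.8 ± 0.97) and Nfkb2 (13.1 ± 0.80) followed. Relb (6.77 ± 0.43) and Nfkb1 (6.74 ± 0.14) came next and were the one pair of neighbours whose ranges overlapped. Below them were Nfkbie (3.09 ± 0.30), Tnfaip3 (1.56 ± 0.14), Tnfaip2 (0.99 ± 0.28) and Rel (0.68 ± 0.09). In CNP-Cdk7cKO the order was the same except that Tnfaip2 (2.57 ± 0.46 CPM per kb) stood above Tnfaip3 (1.54 ± 0.14), and Relb and Nfkb1 again overlapped. Nfkb2 reached 18.8 ± 0.22 CPM per kb there, and Nfkbie, at 6.02 ± 0.52, lay just below Nfkb1 at 7.05 ± 0.34. Merged exons join all annotated transcripts of a gene, so genes with long rare exons are understated on this scale.

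**Figure D2:**
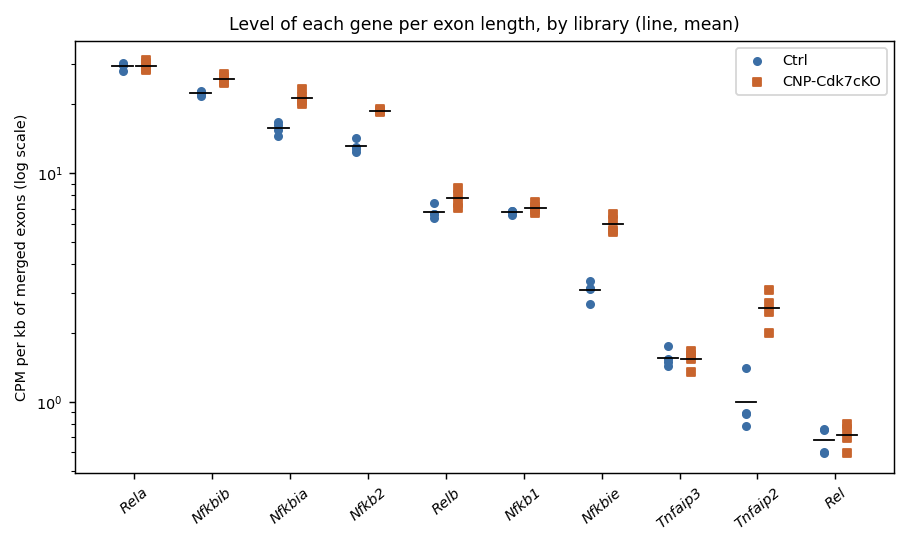
Level of each gene in CPM per kb of merged exons (vertical axis, log scale), in order of the Ctrl mean, with 1 point per library (circles, Ctrl; squares, CNP-Cdk7cKO) and a line at each group mean. Rela is highest and Rel lowest in both groups, and Tnfaip2 passes Tnfaip3 in CNP-Cdk7cKO.

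Because sex, muscle RNA and macrophage RNA moved with genotype, the member values were also read from fits that take each into account. What part the higher sum of fibroblast markers has in the member values was not tested. With Xist as a covariate the log2 fold changes were 0.40 for Nfkb2, 0.55 for Nfkbia, 0.18 for Nfkbib, 1.16 for Nfkbie and 1.75 for Tnfaip2. The 5 female libraries alone gave 0.39, 0.55, 0.17, 1.17 and 1.70 for the same genes. There Ctrl 1 stands alone and its variance is borrowed from the knockouts. Among controls Xist was high in Ctrl 1 only, so the Xist fit in effect also sets the knockouts against Ctrl 1. The Xist fit and the female libraries are therefore not separate checks. With the mean log2 CPM of the muscle markers as a covariate, the log2 fold changes of these genes were 0.45, 0.38, 0.22, 1.13 and 2.17. With that of the macrophage markers they were 0.60, 0.34, 0.20, 0.85 and 1.17. The sign was the same in every one of these fits. Nfkbie and Tnfaip2 were called in all 4 of them, Nfkb2 in all but the female libraries, Nfkbia in all but the female libraries and the muscle fit, and Nfkbib in none. The call of Nfkbib also ended when either Ctrl 2 or Ctrl 3 was left out. Rel, not called in any fit, ranged from 0.01 with macrophage markers to 0.43 with muscle markers.

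**Figure D3:**
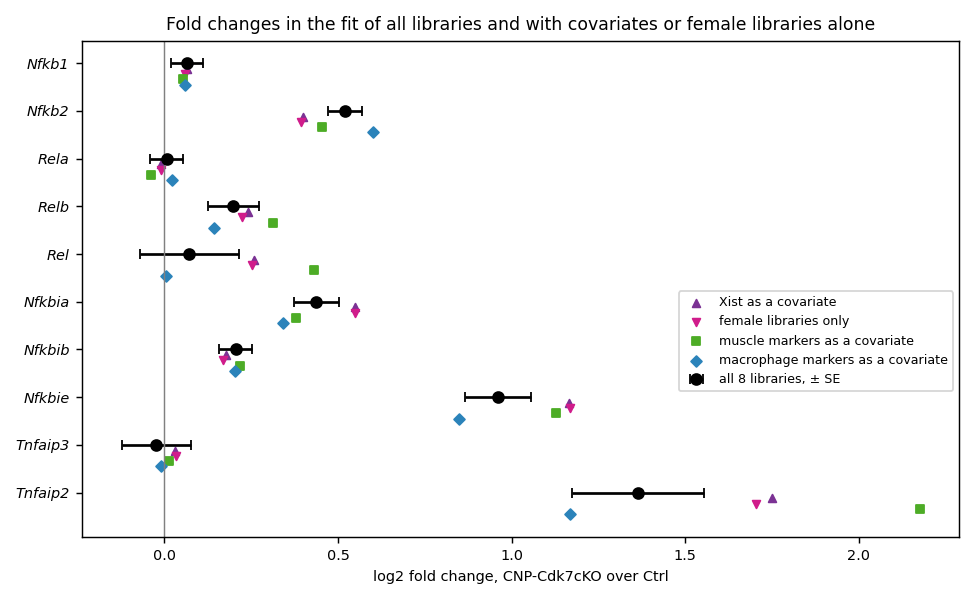
Log2 fold change, CNP-Cdk7cKO over Ctrl (horizontal axis), of the 10 genes in the fit of all 8 libraries (black points, with SE) and in fits with Xist, muscle or macrophage markers as a covariate or with the 5 female libraries alone (coloured points, no error drawn). Tnfaip2 runs from 1.17 to 2.17 and Nfkbie from 0.85 to 1.17, and points of Rela and Tnfaip3 lie on both sides of 0.

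Around the members, 133 other genes of the pathway were read from the same fit in 4 lists by role, drawn up from general knowledge with earlier results of the series known. Of the 114 with enough counts, 17 rose (14.9%) and 2 fell, beside 5.07% and 6.6% of all genes. Their median log2 fold change was 0.06.

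Among receptors and ligands, 4 of 28 tested genes rose (14.3%, beside 5.07% of all genes), with a list median of 0.03. Eda2r, a receptor of the tumour necrosis factor family that is also a p53 target, rose from 1.77 ± 0.76 to 10.2 ± 2.05 CPM (n = 4), a log2 fold change of 2.51 ± 0.26 with an edgeR adjusted p of 0.000226. Ltbr, the lymphotoxin beta receptor that feeds the non-canonical arm, rose from 68.5 ± 1.03 to 82.9 ± 4.62 CPM (0.28 ± 0.05, edgeR adjusted p = 0.00476). Tnfrsf1a, the main receptor for tumour necrosis factor, went from 60.4 ± 7.16 to 74.2 ± 3.55 CPM (edgeR adjusted p = 0.0307), and the alarmin gene Il33 from 33.7 ± 3.45 to 40.9 ± 0.92 CPM (edgeR adjusted p = 0.0262). These 2 calls hung on the libraries used: Tnfrsf1a stayed called in 2 of the 8 fits that leave out a library, and Il33 in 3. Among the ligands of this list, transcripts of Tnf and Il1b were scarce, unlike those of Il33. Tnf measured 0.21 to 1.51 CPM in controls, against 0.40 to 0.88 CPM in knockouts, and Il1b at most 0.49 CPM in any library, too few counts to be tested.

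For the machinery between receptor and NF-kappaB, the share of genes called higher was near that of all genes. Of 33 tested adaptors and kinases 1 was called, Card10, a scaffold that links receptors to the kinase complex, at 24.1 ± 1.85 CPM in controls and 30.6 ± 3.02 CPM in knockouts (log2 fold change 0.34 ± 0.08, edgeR adjusted p = 0.0188). Of 21 other IkappaB genes and brakes 1 was called as well: Socs3, an inhibitor of cytokine signalling, rose from 16.3 ± 1.38 to 21.6 ± 2.50 CPM (0.41 ± 0.09, edgeR adjusted p = 0.0173). Bcl3, a nuclear IkappaB that pairs with the Nfkb1 and Nfkb2 products, measured 5.38 ± 0.47 and 6.77 ± 0.80 CPM and did not pass (edgeR adjusted p = 0.118). Nfkbiz, another nuclear IkappaB, measured 4.83 ± 0.49 and 4.75 ± 0.57 CPM. These shares, 3.03% and 4.76%, stand beside 5.07% of all genes called higher, and both lists had a median log2 fold change of 0.02.

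Known target genes held most of the calls, with 11 of 32 tested genes higher (34.4%) and 2 lower, and a median of 0.25. Of all genes, 5.07% were called higher and 6.6% lower. Cx3cl1, a membrane-bound chemokine for macrophages, rose from 4.22 ± 0.33 to 14.4 ± 3.67 CPM (log2 fold change 1.76 ± 0.18, edgeR adjusted p = 0.000205). The interferon-linked chemokine gene Cxcl10 rose from 5.91 ± 1.28 to 14.2 ± 1.38 CPM (1.27 ± 0.15, edgeR adjusted p = 0.00055), and Csf1, the macrophage growth factor, from 38.6 ± 2.87 to 61.4 ± 4.79 CPM (0.67 ± 0.07, edgeR adjusted p = 0.000275). The adhesion molecule genes Vcam1 (0.62 ± 0.09) and Icam1 (0.55 ± 0.11), the peptide transporter gene Tap1 (0.74 ± 0.09), the cytokine gene Lif (0.67 ± 0.11), Marcksl1 (0.33 ± 0.05) and the monocyte chemokine gene Ccl2 (0.55 ± 0.16) also rose, with edgeR adjusted p from 0.000854 to 0.045. The 2 genes that fell, named after their values were seen, were the vessel growth factor gene Vegfa (-0.41 ± 0.08, edgeR adjusted p = 0.0115) and the mitochondrial dismutase gene Sod2 (-0.16 ± 0.05, edgeR adjusted p = 0.0478). Sod2 passed in 1 of the 8 fits that leave out a library, and Ccl2 in 2. Other well-known targets were too scarce to test, among them Il6, with at most 2 counts in a library, and Ptgs2, with at most 7 (both named after their values were seen). Several genes of this list also answer to p53 or interferon, and earlier results on cytokine genes were known when it was drawn up, so its count is no independent evidence of its direction.

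Fits that take sex, muscle or macrophage RNA into account called fewer pathway genes, and fewer genes in all. Of all tested genes, 763 were called higher in the fit of all libraries, 76 with Xist, 99 with muscle markers and 346 with macrophage markers. Several pathway fold changes stayed about as large, and others did not. Across the 4 fits, Il33, at 0.28 in the fit of all libraries, lay between 0.13 and 0.37, and Marcksl1, at 0.33, between 0.23 and 0.37. Cxcl1, at 1.40 there and named after its value was seen, lay between 0.45 and 1.28. The Xist and female fits both rest on Ctrl 1. Of the pathway genes, 6 were called higher with Xist as a covariate, 5 with muscle markers, 10 with macrophage markers and 3 in the female libraries alone. Across these 4 fits, Eda2r and Csf1 passed in each, with edgeR adjusted p of at most 0.0115 and 0.0227. Ltbr passed in none of them (adjusted p between 0.0691 and 0.331, edgeR), and its log2 fold change lay between 0.20 and 0.25. Icam1, Vcam1, Lif and Cx3cl1 lost a call in some of these fits, and Socs3 in all of them. Log2 fold changes lay between 0.49 and 0.64 for Icam1, 0.54 and 0.75 for Vcam1, and 0.71 and 0.76 for Lif. Those of Socs3 lay between 0.45 and 0.52, and those of Cx3cl1 between 1.76 and 2.14. Card10 was lower in each of them than in the fit of all libraries, at 0.14 to 0.32. Ccl2, at 0.55 in the fit of all libraries, was 0.14 with macrophage markers, 0.62 with muscle markers, 1.05 with Xist, where it stayed called, and 1.04 in the female libraries.

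**Figure D4:**
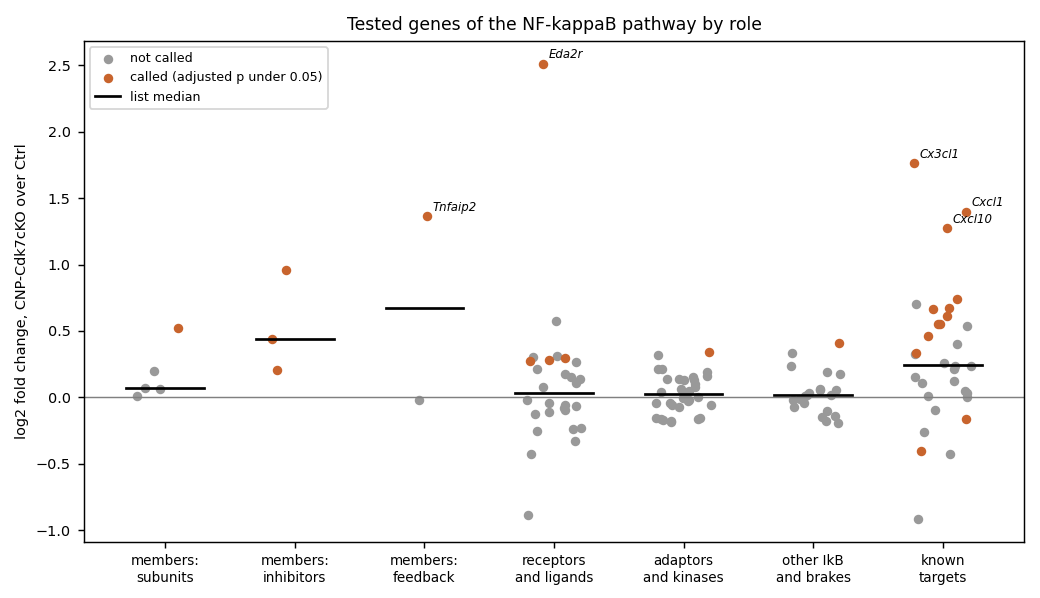
Log2 fold change, CNP-Cdk7cKO over Ctrl (vertical axis), of each tested gene, grouped by role: the 3 member groups and the 4 lists of other pathway genes. Orange points were called by edgeR at an adjusted p under 0.05, grey points were not, the black line is the median of a group, and names mark called genes above 1. Adaptors and kinases cluster around 0, whereas known targets reach 1.76 (Cx3cl1; Cxcl1, at 1.40, is named here after its value was seen).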

How the data were processed

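Stranded polyadenylated libraries were prepared from 250 ng of RNA from sciatic nerve, per the labels. The authors deposited estimated counts for each gene, made with STAR and Salmon on GRCm38 according to the submitters' processing notes; versions, settings and annotation were not stated. Of them 8.29% were not whole, and all were rounded. Symbols came from GENCODE M21 and matched 55141 of 55487 identifiers.

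Genes passing filterByExpr (minimum count 10, minimum total 15) were scaled by TMM and compared with the edgeR 4.0.16 quasi-likelihood F test in R 4.3.3, with Benjamini-Hochberg adjustment over all of them. Alternatives used DESeq2 1.42.0, limma 3.58.1, other scalings, filters and covariates, a replicate block, female libraries and each library left out. Simulated counts were used to check the main edgeR fit only, and not the alternatives. Replicates differed beyond counting noise (chi-square per degree of freedom 3.86 to 17.6). The members, lists and alternatives were chosen with earlier results of these data known. Named were all members, Cdk7, Cnp and, per pathway list, up to 8 called genes with the smallest p, and a few fixed genes; others are marked.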

Additional observations from a re-analysis of the deposited data

Results flagged for a closer look

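In groups of 4 libraries, a value was marked when its gap to the next value exceeded Dixon's critical share of the range of its group, which chance alone gives in about 1 of 20 groups; 58 groups were checked, of the 10 members and the 19 other pathway genes called. No member was marked. Vcam1 measured 16.4 CPM in CNP-Cdk7cKO 2, against 13.5 to 13.8 CPM in the other knockout libraries. Tap1 was low in CNP-Cdk7cKO 3, at 22.2 CPM against 27.4 to 27.6 CPM. Vegfa measured 25.7 CPM in CNP-Cdk7cKO 1, against 27.6 to 27.8 CPM in the others. Marcksl1 measured 226 CPM in Ctrl 1, the female control, against 203 to 207 CPM in the male controls.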

How the results depend on the processing

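The 5 members called higher (Nfkb2, Nfkbia, Nfkbib, Nfkbie and Tnfaip2) had a positive log2 fold change under all 19 alternatives. Nfkbie and Tnfaip2 passed in 19 of them, Nfkb2 in 18, Nfkbia in 17 and Nfkbib in 13. Members called higher numbered 3 with muscle markers as a covariate and 2 in the female libraries. Pathway genes called higher were 6 with Xist, 5 with muscle markers and 10 with macrophage markers as a covariate and 3 in the female libraries, and in each of these 4 fits edgeR called 0 lower. Pathway genes called lower were 2 in the main fit, 3 by DESeq2 and 3 with the filter of 1 CPM in 4 libraries. They were 1 by limma-voom, 1 with the replicate block and 1 to 2 with a library left out.

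Over all genes, 76 were called higher and 167 lower with Xist, 99 and 150 with muscle markers, 346 and 581 with macrophage markers, and 37 and 77 in the female libraries. With a library left out the counts were 470 to 655 higher and 653 to 860 lower, lowest in both directions without Ctrl 2. Covariates that follow genotype and smaller samples widen errors, and how much of each fall in counts comes from that was not tested. The replicate numbers gave no clear sign of pairing: deviations of same-numbered libraries correlated at 0.04, 0.08, 0.13 and 0.01. Such low correlations cannot show that no pairing exists. The replicate block called 5 members higher, as without it, and 682 genes higher and 926 lower in all. Rel, with 73 to 124 counts per library, is the member whose error most limits what could be seen (SE 0.14 among members not called).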
